A study of Mus musculus with 2 samples.

Results

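The cells described here are the vascular endothelial cells of the E10.5 mouse heart, at mid-gestation, chosen by the RNA of Fabp4 and Tcf15 and by the lack of Npr3 RNA. A 10x barcode entered with at least 3000 UMIs (unique molecular identifiers, each counting 1 captured RNA molecule), at least 500 genes, at most 20% mitochondrial and under 20% hemoglobin UMIs, and Ttn below 8 per 10000 UMIs. It then needed a UMI of at least 4 of the 6 endothelial genes Pecam1, Cdh5, Egfl7, Kdr, Tek and Emcn. Of the 2134 barcodes past this endothelial gate, 131 had at least 2 UMIs of Fabp4 and Tcf15 together and 0 of Npr3, out of 13406 barcodes of all cell types that passed the quality limits. The wildtype library gave 125 of the 131 and the knockout library 6.

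Fabp4 encodes a fatty acid binding protein of capillary and venous endothelium, and Tcf15 a transcription factor that acts with Meox2 on fatty acid uptake in heart capillaries. Npr3, a clearance receptor for natriuretic peptides, marks the endocardium, the endothelium that lines the heart chambers. At this stage the endocardium holds most of the heart's endothelial cells, while a vascular plexus is starting to form on the heart's surface and vessels enter and leave at both poles. Endothelial cells of such a plexus divide, read VEGF through Kdr, Flt4 and the neuropilins, and later take on arterial, venous, capillary or lymphatic character.

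Each library came from 4 pooled hearts, dissociated together, with 1 library per genotype. The wildtype library was BubR1+/+ ; Nkx2.5-cre (het) and the knockout library BubR1fl/fl ; Nkx2.5-cre (het), so both groups carried 1 copy of the Cre allele. Nkx2.5-cre recombines in cardiac progenitors and their descendants, and the labels do not say which endothelial cells it reaches or which part of BubR1 is flanked by loxP sites. BubR1, the product of Bub1b, is a kinase of the spindle assembly checkpoint, and the groups ask how heart cells fare once the gene is recombined. Embryos of both groups lay on ice for 3 hours while they were genotyped.

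With 1 library per genotype there is no replicate check. No test was run between genotypes, and genotype, pool and library cannot be told apart. Intervals are exact, at 95%, and cover counting error only. The wildtype file held 122834180 UMIs and the knockout file 130039314. The libraries stood apart in 3 ways before any comparison. Cells of the knockout library were deeper, with a median of 12579 UMIs against 7773 in Npr3-positive endothelial cells. The minimum of 500 genes took the wildtype library from 11123 to 7481 barcodes and the knockout library from 6060 to 6045. RNA from the Y chromosome was nearly missing from the knockout library: Uty had 68 UMIs in the wildtype vascular cells and 607 in the wildtype Npr3-positive cells, and 0 in both knockout classes, while Xist stood at 276 CPM (counts per 1000000 UMIs of the class) in the wildtype vascular cells and 781 CPM in the knockout ones. The sex make-up of the pools therefore differs with genotype in every value that sets both libraries side by side, and its part was not tested. Between the libraries, 8 quality barcodes were shared and 0 of them were vascular cells.

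The vascular endothelial cells made up 9.51% (95% interval 7.98 to 11.2) of gated endothelial cells in the wildtype library, 125 of 1314, and 0.732% (0.269 to 1.59) in the knockout library, 6 of 820. The wildtype share was 13.0-fold higher, and the counting intervals did not overlap. As a share of all quality barcodes the cells were 1.68% (1.40 to 2.0) of 7440 in the wildtype library and 0.101% (0.0369 to 0.219) of 5966 in the knockout library, a 16.7-fold difference. The endothelial gate itself differed far less, with 17.7% (16.8 to 18.5) against 13.7% (12.9 to 14.6) of quality barcodes, or 1.28-fold. Npr3-positive cells were 1039 (79.1%) and 706 (86.1%) of the gated cells, and the remaining Npr3-negative cells, with fewer than 2 UMIs of Fabp4 and Tcf15, 150 (11.4%) and 108 (13.2%). The remaining Npr3-negative cells thus had similar shares, while Npr3-negative cells as a whole were a smaller part of the gate in the knockout library. Fabp4 and Tcf15 UMIs divide the Npr3-negative cells, so a cell with less of that RNA would count among the remaining ones. These shares therefore cannot place the gap in either set. Both libraries were dissected as whole hearts, and how much adjoining vessel each pool held is not given.

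**Figure D1:**
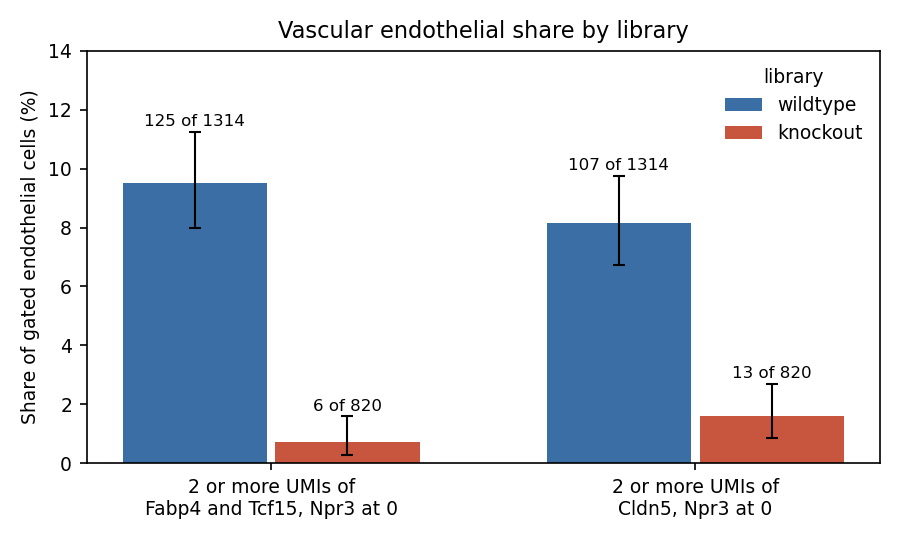
Share of gated endothelial cells (y axis, %) in the wildtype and knockout libraries under the Fabp4 and Tcf15 rule (left) and under a rule with Cldn5 in their place (right). Bars are shares, whiskers exact 95% intervals for counting error, and the counts stand above; the wildtype bar is 13.0-fold higher on the left and 5.14-fold higher on the right.

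The size of the gap depends on the limit on Npr3 and on Fabp4, which was itself lower in the knockout library. With 1 Npr3 UMI allowed the rule took 146 wildtype and 11 knockout cells. In all, the limit on Npr3 left out 97 wildtype and 13 knockout gated cells with at least 2 UMIs of Fabp4 and Tcf15. Thinning every cell to 3000 UMIs before the rule left 77 wildtype cells and 1 knockout cell. A second rule, chosen after the data were seen, replaced Fabp4 and Tcf15 by at least 2 UMIs of Cldn5, a tight junction protein of vascular endothelium. It took 107 wildtype cells, 8.14% (6.72 to 9.76), and 13 knockout cells, 1.59% (0.847 to 2.70), so the difference was 5.14-fold. Of these, 85 wildtype cells (79.4%) and 5 knockout cells (38.5%) were also vascular cells by Fabp4 and Tcf15, and 21 and 7 had no UMI of either gene. In the Cldn5 cells Fabp4 stood at 2229 CPM in the wildtype and 72.5 CPM in the knockout library, whereas Nrp2, the VEGF-C co-receptor of veins and lymphatics, stood at 284 and 269 CPM. Cells with a vascular pattern were thus fewer in the knockout library by either rule, and those found there carried less Fabp4 RNA. The rules share the endothelial gate, the limit on Npr3 and most wildtype cells, so the second is no independent support for the first.

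Fabp4 gave 3992 UMIs in 114 of the 125 wildtype cells and 21 UMIs in 6 of 6 knockout cells, which is 2556 CPM (2477 to 2637) and 203 CPM (125 to 310). The counts per wildtype cell ran from 0 to 257 with a median of 19, and 75 cells had at least 10. The 6 knockout cells had 2, 2, 3, 3, 3 and 8 UMIs of Fabp4. All 6 lay below the wildtype median although the knockout cells were deeper, with a median of 15534 UMIs (3158 to 32295) against 10374 (3068 to 43055). Tcf15 gave 336 UMIs in 92 wildtype cells, 215 CPM (193 to 239), with a median of 2 and a highest count of 22, and 1 UMI in the knockout cells. These 2 genes and Npr3 chose the cells, so their levels here are a description. In the GENCODE annotation of GRCm38 Fabp4 lies at chr3:10204088-10208576 on the minus strand, Tcf15 at chr2:152143561-152149097 on the plus strand and Npr3 at chr15:11839896-11907287 on the minus strand.

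**Figure D2:**
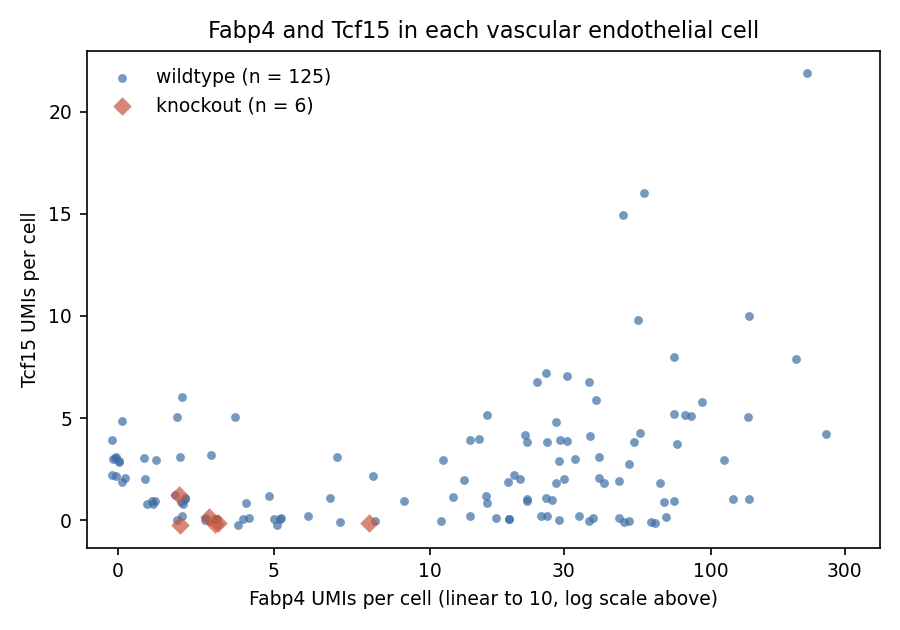
UMIs of Fabp4 (x axis, linear to 10 and log scale above) and of Tcf15 (y axis) in each of the 125 wildtype (circles) and 6 knockout (diamonds) vascular endothelial cells, with points slightly jittered. The wildtype cells reach 257 UMIs of Fabp4 and 22 of Tcf15, while the knockout cells hold 2 to 8 and 0 to 1.

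Outside the class Fabp4 was low on average. It stood at 137 CPM in wildtype Npr3-positive cells, 6.65 CPM in the other Npr3-negative cells, 5.13 CPM in cardiomyocytes and 16.7 CPM in blood cells, against 2.45, 5.17, 2.48 and 0.198 CPM in the knockout library. Of the 1287 Fabp4 UMIs in wildtype Npr3-positive cells, 1251 lay in the 97 cells with at least 2 UMIs of Fabp4 and Tcf15. A UMI of Fabp4 was found in 4.48% of wildtype cardiomyocytes (median 14570 UMIs) and 8.08% of Npr3-positive cells (median 7773 UMIs). Free RNA, read from barcodes with at most 100 UMIs, held Fabp4 at 51.7 CPM in the wildtype and 2.18 CPM in the knockout library, and at most 1.16 of the 3992 Fabp4 UMIs in wildtype vascular cells could come from it. After every cell was thinned to 3000 UMIs, Fabp4 was found in 79.2% of wildtype vascular cells and 5.29% of Npr3-positive cells. The rule asked for Fabp4 or Tcf15 UMIs, so these levels of the class are set by the choice of cells.

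The defining endothelial genes were high in the class by choice, since the gate asked for 4 of 6 of them, and their values are a description. Pecam1, an adhesion molecule of endothelial junctions, stood at 387 CPM in the wildtype and 260.4 CPM in the knockout vascular cells, beside 378 and 250.2 CPM in the Npr3-positive cells of the same libraries. Cdh5, or VE-cadherin, stood at 615 and 453 CPM, beside 435 and 287 CPM. Kdr, the main VEGF receptor, stood at 366 and 482 CPM, and the angiopoietin receptor Tek at 188 and 260.4 CPM, where Npr3-positive cells had 529.6 and 423 CPM. All 20 genes of a list of further endothelial genes were measured, with a median log2 ratio of 0.43 over Npr3-positive cells in the wildtype library and 0.40 in the knockout library. These 20 genes were not used by the rule, and 0 of them were at 0 UMIs in the knockout vascular cells.

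Values just inside and just outside the rule show where its edges lie in the wildtype library. The 10 cells with exactly 2 UMIs of Fabp4 and Tcf15 had Cldn5 at 343 CPM and Cdkn1c, a kinase inhibitor abundant in endocardium, at 1133 CPM. The 115 cells with 3 or more had Cdkn1c at 330 CPM, and the 21 cells with 1 UMI, outside the rule, had it at 1998 CPM with Cldn5 at 44.5 CPM. Another 21 cells passed on Fabp4 and Tcf15 but had a single UMI of Npr3, with Fabp4 at 2810, Cldn5 at 161 and Cdkn1c at 1240 CPM. A further 76 such cells had more than 1 UMI of Npr3, with Fabp4 at 579, Cldn5 at 52.3 and Cdkn1c at 4061 CPM. The cells beyond either edge thus carried more Cdkn1c RNA. In the knockout library, 14 cells had 1 UMI of Fabp4 and Tcf15. Of the knockout cells with at least 2, 5 had a single Npr3 UMI and 8 had more.

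Genes that set the vascular cells apart from the Npr3-positive cells were read as log2 ratios of CPM after 5 CPM were added, in each library on its own. Because the rule chose the cells on the same data, these ratios describe the class and no test was made of them. In the wildtype library 414 of 12814 genes with at least 20 UMIs were at least 2-fold higher (3.23%) and 1012 at least 2-fold lower (7.9%), with a median of -0.15 over all genes. In the knockout library, where 6 cells hold 103676 UMIs and 1 UMI is 9.65 CPM, 994 of 12511 were higher (7.95%) and 3161 lower (25.3%), but 2199 of the lower genes had 0 UMIs in the 6 cells. With those zeros set to a floor of 3 UMIs, or 28.9 CPM, 1037 genes were lower. The median over all genes of the knockout library was -0.42, and 0.37 with zeros at the floor, so the floor raises list medians there. Of 12145 genes measured in both libraries, 162 were higher in both and 647 lower in both.

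Between the vascular cells of both libraries 545 of 8164 genes were at least 2-fold higher in the knockout (6.68%) and 1678 lower (20.6%), with a median of -0.21. With 1 Npr3 UMI allowed the counts were 331 and 1080, and with the Cldn5 rule 287 and 906. Of the lower genes 788 had 0 UMIs in the 6 knockout cells, and with zeros at the floor 919 were lower and the median was -0.03. The direction and size of single genes rest on 6 cells, and for some of the named ones the cells that carry them are given. For others, among them Cdh2, Colec12, Junb, Ero1l, Plod2, Dach1 and Asb4, the spread over the knockout cells is not given here. Counting intervals do not cover the spread between cells.

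The 10 genes with the strongest higher ratio in both libraries were Cldn5, Piezo2, Pcdh17, Igfbp3, Nrp2, S100a16, Arhgap18, Dach1, Odc1 and Asb4. Cldn5 stood at 298 CPM in wildtype vascular cells, 19.6 CPM in Npr3-positive and 80.7 CPM in other Npr3-negative cells, and at 251, 7.16 and 33.2 CPM in the knockout library. A UMI of Cldn5 was found in 102 of 125 wildtype cells, in 6 of 6 knockout cells and in 9.24% of wildtype Npr3-positive cells. Nrp2 stood at 273, 38.7 and 39.1 CPM in the 3 wildtype classes and at 270.1 CPM in the knockout vascular cells, beside 20.4 CPM in the Npr3-positive ones. Both genes were nearly level between the genotypes within the class, with log2 ratios of knockout over wildtype of -0.25 (plain ratio -0.88 to 0.32) and -0.01 (-0.62 to 0.54).

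Piezo2, a mechanically gated ion channel, stood at 285 CPM in wildtype and 231 CPM in knockout vascular cells, beside 29.1 and 9.61 CPM in Npr3-positive cells. Pcdh17, a protocadherin, stood at 261 and 405 CPM beside 32.7 and 35.2 CPM, and Arhgap18, a GTPase-activating protein, at 442 and 424 CPM beside 92.3 and 49.7 CPM. Odc1, which starts polyamine synthesis, stood at 552 and 723 CPM beside 102 and 168 CPM. In both libraries these genes stood far above the Npr3-positive level. Dach1, a transcriptional cofactor known from coronary artery growth, and Asb4, a SOCS-box protein, also differed between the libraries: Dach1 stood at 111 CPM in wildtype and 260.4 CPM in knockout vascular cells, and Asb4 at 121 and 338 CPM. A depth limit left out, in every class, barcodes above 2 times the median UMIs of the library's vascular cells. It took out the deepest knockout cell and left 107 of the 125 wildtype vascular cells. Under it the log2 ratio of Piezo2 over Npr3-positive cells in the knockout library was 2.86 in place of 4.02.

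Promoter sequence is shown for 3 of these genes because they were high together in the vascular cells of both libraries. RefSeq promoters of GRCm38.p6, from 250 bases before to 50 after the start, were found for 9 of the 10 genes, with 11 promoters in all; Fabp4 and Tcf15 have no entry. The letters searched were GGAA and its reverse complement TTCC, the core bound by ETS factors such as Erg and Fli1, counted on both strands with no overlap possible between the pair. The core is in capitals in each line, and the 3 were taken for their range of 0, 1 and 6 matches.
Cldn5, chr16:18776597-18776896, plus strand: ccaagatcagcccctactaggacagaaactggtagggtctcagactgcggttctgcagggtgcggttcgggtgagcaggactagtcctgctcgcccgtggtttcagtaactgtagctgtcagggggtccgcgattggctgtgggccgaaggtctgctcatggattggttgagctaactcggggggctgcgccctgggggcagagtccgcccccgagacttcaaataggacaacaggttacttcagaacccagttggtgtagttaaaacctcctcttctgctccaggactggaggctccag
Nrp2, chr1:62703067-62703366, plus strand: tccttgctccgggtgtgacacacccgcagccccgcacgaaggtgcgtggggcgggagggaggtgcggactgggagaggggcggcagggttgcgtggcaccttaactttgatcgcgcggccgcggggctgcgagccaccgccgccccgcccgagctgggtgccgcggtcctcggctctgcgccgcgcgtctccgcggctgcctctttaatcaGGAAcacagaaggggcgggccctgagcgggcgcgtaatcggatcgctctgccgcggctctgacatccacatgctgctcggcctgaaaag
Arhgap18, chr10:26772262-26772561, plus strand: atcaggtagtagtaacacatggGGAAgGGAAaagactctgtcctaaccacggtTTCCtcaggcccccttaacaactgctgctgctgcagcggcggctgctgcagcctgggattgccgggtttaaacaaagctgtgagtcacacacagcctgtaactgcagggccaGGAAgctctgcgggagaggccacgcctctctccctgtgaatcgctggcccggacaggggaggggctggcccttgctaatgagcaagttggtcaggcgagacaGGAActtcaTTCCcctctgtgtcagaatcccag
Across the 11 promoters the median was 2 cores and 9 (81.8%) held at least 1, whereas 96.0% of all 32817 promoters of this length did, with a median of 3. The E-box CANNTG, the letters bound by basic helix-loop-helix factors such as Tcf15, was in 8 of the 11 and in 72.3% of all promoters. The matches describe these windows only.

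Of the 10 genes lowest in the vascular cells of both libraries, 3 were on a list of endocardial genes: Adgrg6, Nrg1 and Cdh11. Adgrg6, an adhesion receptor needed for heart development, stood at 12.2 CPM in wildtype vascular cells against 594 CPM in Npr3-positive cells. Nrg1, the ErbB ligand that endocardium sends to myocardium, stood at 33.9 against 443 CPM, and Cdh11, a cadherin of the cushion endocardium and mesenchyme, at 58.3 against 1152 CPM. Tmem108 stood at 51.2 against 1081 CPM and Nrxn3 at 65.3 against 1048 CPM. The 6 knockout cells had 0 UMIs of Adgrg6, Nrg1, Tmem108, Nrxn3 and Col23a1, which puts them at least 14.2-fold, 15.5-fold, 28.2-fold, 29.2-fold and 11.8-fold lower than the knockout Npr3-positive cells, against the floor of 3 UMIs over the 6 cells. For Nrg1 this rests on the bar on Npr3: the 5 knockout cells with 1 Npr3 UMI had 536 CPM of it, and the log2 ratio over Npr3-positive cells was -0.73 with those cells let in and -2.28 with the Cldn5 rule. The log2 ratio of Cdh11 over knockout Npr3-positive cells was -5.32, and -2.86 with 1 Npr3 UMI allowed. Hs3st4, Dlk1, Hand2os1 and Ntm complete the lowest 10 of both libraries.

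The wildtype Nrg1 RNA sat in few cells. A UMI was found in 8 of the 125 cells, and 5 of them held 94.3% of it. Cdkn1c, which holds cells out of the cycle, stood at 379 CPM in wildtype vascular cells, 4337 CPM in Npr3-positive and 1301 CPM in other Npr3-negative cells, and at 135, 6161 and 1892 CPM in the knockout library. Over knockout Npr3-positive cells its log2 ratio was -5.46, and -2.28 with 1 Npr3 UMI allowed. The 5 knockout cells with 1 Npr3 UMI had Cdkn1c at 2482 CPM. At 3000 UMIs per cell it was found in 40.8% of wildtype vascular cells and 92.3% of Npr3-positive cells. At equal depth most vascular cells thus had no UMI of the gene, while nearly all Npr3-positive cells had one.

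**Figure D3:**
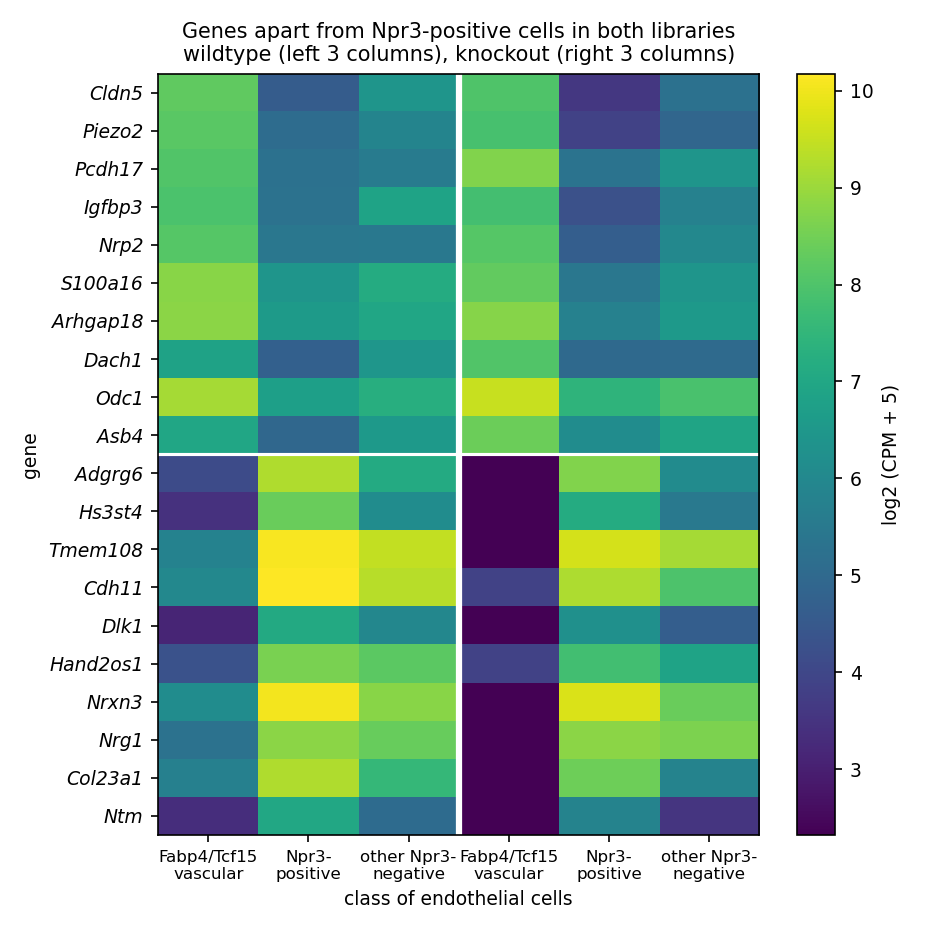
Level of the 10 genes highest (upper rows) and the 10 lowest (lower rows) in vascular cells relative to Npr3-positive cells in both libraries, as log2 of CPM plus 5 (colour), for 3 endothelial classes of each library. The vascular columns stand out in the upper rows of both libraries, as with Cldn5 at 298 and 251 CPM, and several genes of the lower rows are at 0 UMIs in the knockout vascular cells.

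A list of 23 endocardial genes, Npr3 left out, was mostly low. In the wildtype library 16 of the 23 were lower and 0 higher, with a median log2 ratio of -2.25. In the knockout library 19 of 22 were lower, with a median of -2.19 (-1.43 with zeros at the floor). All genes of the knockout library had a median of -0.42 (0.37 with zeros at the floor). Gata4, a cardiac transcription factor, stood at 49.9 CPM in wildtype vascular cells against 252 CPM in Npr3-positive cells, Tbx20 at 16.6 against 138 CPM and Hand2 at 17.3 against 148 CPM. Smoc1, a secreted matrix protein of the endocardium, had 1 UMI in the wildtype vascular cells and 112 CPM in the Npr3-positive ones. Plxnd1, a semaphorin receptor, and Dusp6, a phosphatase of the ERK pathway, lay above 0 with log2 ratios of 0.33 and 0.35, short of 2-fold.

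Against the other Npr3-negative endothelial cells of the wildtype library, 428 of 9928 genes were higher (4.31%) and 1013 lower (10.2%), with a median of -0.08. The endocardial list was low here too, with 18 of 22 genes lower and a median of -2.02, so the Npr3-negative cells without Fabp4 and Tcf15 kept endocardial RNA. Vcan, the versican core protein of cushion matrix, stood at 51.9 CPM in the vascular cells against 629 CPM, and Tbx20 at 16.6 against 326 CPM. Pf4, a platelet chemokine, stood at 10.2 against 535 CPM. Ldb2, a LIM-domain binding cofactor, was among the genes higher against both classes, at 449 CPM against 148 CPM in these cells and 238 CPM in Npr3-positive cells, with 444 CPM in the knockout vascular cells. Adgrl4, an adhesion receptor of growing vessels, stood at 167 against 53.2 and 81.1 CPM, and at 405 CPM in the knockout vascular cells.

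Genes of capillaries and of tip cells, the cells that lead vascular sprouts, were high in the wildtype class. Of 20 such genes 18 were measured and 11 were at least 2-fold above the Npr3-positive level, with 1 lower and a median log2 ratio of 1.44. Kcne3, a potassium channel subunit, stood at 149.8 against 5.33 CPM, and Sparcl1, a secreted matrix protein, at 286 against 30.5 CPM. Aplnr, the apelin receptor, stood at 122 against 6.72 CPM, and its ligand Apln at 63.4 against 3.09 CPM. Rgcc stood at 67.2 against 2.77 CPM and Adm, or adrenomedullin, at 33.9 against 3.31 CPM. Plvap, the diaphragm protein of fenestrated endothelium, was the lower one, at 55.1 against 371 CPM.

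These genes were unevenly spread over the wildtype cells. Kcne3 was found in 62 of 125 cells, with up to 21 UMIs in a cell, and Aplnr in 64. A UMI of both was found in 32 cells, of Kcne3 alone in 30, of Aplnr alone in 32 and of neither in 31. Apln, the ligand, was found in 40 cells. At 3000 UMIs Kcne3 was found in 29.6% of vascular and 1.06% of Npr3-positive cells, and Aplnr in 31.2% and 1.25%.

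The knockout cells held few UMIs of the capillary genes. They had 2 of Kcne3, 1 of Aplnr, 3 of Apln, 1 of Rgcc and 2 of Sparcl1, and 9 of Adm, or 86.8 CPM. The log2 ratio of Aplnr over knockout Npr3-positive cells was 0.98, but 2.10 with 1 Npr3 UMI allowed and 2.47 with the Cldn5 rule. That of Kcne3 was 1.89, 2.83 with the Cldn5 rule and 1.35 with a minimum of 3 UMIs of Fabp4 and Tcf15. How low these 2 genes stood in the knockout library thus depends on the rule. Between libraries 10 of the 18 genes were lower in the knockout vascular cells and 2 were higher, Plvap and Adm, with a median of -1.37; with zeros at the floor it was -0.45 and 8 were lower. The plain ratio of knockout to wildtype for Kcne3 lay between -6.01 and -1.09 on the log2 scale. The median of all genes over the knockout Npr3-positive cells was -0.42 (0.37 with zeros at the floor). The list's median there was 0.89 (1.09 with zeros at the floor), 0.20 with the Cldn5 rule and -0.29 under the depth limit. The list's position above 0 in the knockout library therefore depends on that limit.

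Of 17 genes of fatty acid handling beside Fabp4 and Tcf15, 14 were measured against wildtype Npr3-positive cells, and 6 were higher and 0 lower, with a median of 0.40. Meox2, the partner of Tcf15, stood at 46.1 against 1.81 CPM, and Gpihbp1, which holds lipoprotein lipase on the capillary wall, at 102 against 11.5 CPM. The fatty acid transporter Cd36 stood at 78.8 against 17 CPM and Cav1, the coat protein of caveolae, at 396 against 131 CPM. Pparg, the nuclear receptor that drives Fabp4 in fat cells, stood at 38.4 against 12.4 CPM. Fabp5, a close relative of Fabp4, went the other way, at 2933 against 4862 CPM.

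Tcf15, a gene of the rule, was found in 92 of the 125 wildtype cells (73.6%). Meox2 was found in 32 of the wildtype cells, and 29 of them also had Tcf15, whereas Tcf15 was found without Meox2 in 63. The median Fabp4 count of the Meox2 cells was 43, beside 19 in all wildtype vascular cells. A deeper cell is more likely to show any of these genes, and depth was not matched here. In the knockout cells Meox2 had 0 UMIs, Gpihbp1 2, Cav1 5 (48.2 CPM) and Pparg 6 (57.9 CPM), while Cd36 had 15 (145 CPM). Cd36 and Pparg were thus not low in the knockout cells, beside 5.71 and 5.89 CPM in the knockout Npr3-positive cells. Cav1 was low in both knockout classes, with 16.3 CPM in the Npr3-positive cells.

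Among 25 endothelial transcription factors beside Tcf15, all measured in the wildtype library, 6 were higher and 2 lower, with a median of 0.48. Sox17, a factor of arterial endothelium, stood at 98 CPM against 9.6 CPM in Npr3-positive cells. In the knockout library it stood at 183 against 18.8 CPM, and 17 of its 19 UMIs came from the deepest cell. It was not particular to the class. In thinned wildtype cells it was found in 22.4% (15.4 to 30.7) of vascular and 1.54% of Npr3-positive cells. The other Npr3-negative cells had it in 16.7% (11.1 to 23.6), and the intervals overlapped. Without thinning, 3 of 6 vascular and 42 of 108 other Npr3-negative knockout cells had a UMI of Sox17. Sox18 stood at 188 against 51.2 CPM and Mef2c at 503 against 195 CPM. Mef2c was nearly level between the vascular cells of both libraries, with 424 CPM in the knockout ones, and so was Tcf4, at 1001 and 1061 CPM. Sox18 had 4 UMIs in the knockout cells, or 38.6 CPM.

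Arterial and venous genes did not divide the class cleanly. Of 20 arterial genes, all measured, 5 were higher and 2 lower than in wildtype Npr3-positive cells, with a median of 0.20, and against the other Npr3-negative cells 3 of 19 were higher and 8 lower, with a median of -0.31. Gja4, a connexin of arteries, stood at 33.3 CPM against 111 and 137 CPM in the other classes, and Bmx, an arterial and endocardial kinase, at 12.2 against 133 and 107 CPM. Dll4, the Notch ligand of arteries and tip cells, stood at 31.4 against 16 and 7.48 CPM. Of the venous genes, Nr2f2, which sets venous fate, stood at 335, 376 and 146 CPM in the 3 wildtype classes, and Flt4, the VEGF-C receptor, at 99.2, 32.4 and 23.3 CPM. In the knockout vascular cells Nr2f2 stood at 424 CPM and Flt4 at 106 CPM.

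Cell by cell, 75 wildtype vascular cells (60%, 50.9 to 68.7) had a UMI of Nr2f2 and none of Gja4 or Gja5. Only 8 (6.4%) had an arterial connexin alone, 17 (13.6%) had both kinds and 25 (20%) neither. After thinning to 3000 UMIs the shares were 44.8%, 4%, 5.6% and 45.6%, beside 47.3%, 9.72%, 15.2% and 27.8% in Npr3-positive cells. Blood cells of the library, with a median of 11578 UMIs and 71.1% of their UMIs from hemoglobin genes, gave 11.7% with Nr2f2 alone and 1.82% with a connexin alone before thinning. Cardiomyocytes, some of which use these genes, gave 13.4% and 9.78%, or 9.45% and 5.97% at 3000 UMIs. The share with a connexin alone in vascular cells was below that of cardiomyocytes and is not read as expression. Of the 6 knockout cells 4 had Nr2f2 alone, 1 both and 1 neither. Sox17 and Nr2f2 were found together in 51 wildtype cells, Sox17 alone in 19, Nr2f2 alone in 41 and neither in 14, so the arterial factor and the venous one were not exclusive at this depth.

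A small lymphatic pattern lay inside the wildtype class. Ccl21a, a chemokine of lymphatic endothelium, had 128 UMIs in 6 cells, of which 2 held 58 each, and 1 UMI in all 1039 Npr3-positive cells. All 6 cells had Prox1, which sets lymphatic fate, at 3 to 10 UMIs, Nrp2 at 7 to 44 and Fabp4 at 3 to 37, and none had Tcf15. Prox1 was found in 12 cells of the class. A list of 8 lymphatic genes had 5 higher and 0 lower than in Npr3-positive cells, with a median of 1.48, but it shares Nrp2, Flt4 and Lyve1 with the venous list, and against the other Npr3-negative cells its median of 1.39 was -0.35 once cells were thinned before the rule. The knockout cells had 0 UMIs of Ccl21a and 1 of Prox1. These cells were chosen after their values were seen.

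A second small set carried artery wall genes. Eln, the elastin gene, stood at 139.6 CPM in the wildtype vascular cells, and 5 cells held 89.9% of it. The 4 cells with at least 10 UMIs had 77, 75, 21 and 14, together with 22, 12, 32 and 3 of Fbln5, a protein that assembles elastic fibres. They had 5 to 10 UMIs of Cldn5, and Nr2f2 was found in 1 of them. The other Npr3-negative cells of the library had Eln at 1017 CPM. Eln was at 0 in the 6 knockout cells.

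By the genes of the rule, 81 wildtype cells (64.8%, 55.8 to 73.1) had both Fabp4 and Tcf15, 33 (26.4%, 18.9 to 35.0) Fabp4 alone and 11 (8.8%) Tcf15 alone. The cells with both were deeper, with a median of 12683 UMIs against 8528, which makes finding both more likely. Relative to the Fabp4-only cells they had higher cell cycle RNA, with list medians of 0.67 for G2/M phase (7 of 30 genes higher), 0.61 for S phase and 0.69 for the spindle checkpoint (5 of 24), beside 0.04 over all 7705 genes. The lymphatic list was lower in them, with a median of -2.24 and 4 of 6 genes, and the arterial list at -0.61 with 4 of 14 lower. Of the knockout cells 5 had Fabp4 alone and 1 both.

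Glycolysis was the metabolic group that stood out. Of 21 genes 20 were measured, and 12 were at least 2-fold higher than in wildtype Npr3-positive cells and 0 lower, with a median of 1.29; against the other Npr3-negative cells 12 of 19 were higher and 1 lower, with a median of 1.28. Pkm, which makes pyruvate, stood at 736 against 209 CPM, Ldha, which reduces it to lactate, at 828 against 271 CPM and Gapdh at 1265 against 498 CPM. Pfkp, a phosphofructokinase, stood at 53.8 against 6.5 CPM and Slc16a3, which exports lactate, at 55.1 against 9.28 CPM. In the knockout library 16 of 20 were higher and 1 lower, with a median of 1.62, and Pkm stood at 1013 against 317 CPM and Ldha at 1177 against 392 CPM. The nuclear genes of oxidative phosphorylation had a median of 0.35 in the wildtype library, with 1 of 26 higher and 0 lower.

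Genes of the hypoxia response were higher in part, with 6 of 17 higher and 0 lower in the wildtype library and a median of 0.73. Ankrd37 stood at 66.6 against 5.12 CPM and Egln3, an oxygen-sensing hydroxylase, at 68.5 against 11.2 CPM. In the knockout vascular cells the list's median over Npr3-positive cells was 2.20, with 14 of 17 genes higher, and over the wildtype vascular cells 1.34, with 10 of 15 higher. Under the depth limit these medians were 1.23 and 0.61, and with the Cldn5 rule 1.13 and 0.53. Pgk1, a glycolytic enzyme, stood at 512 CPM in wildtype and 1447 CPM in knockout vascular cells, against 162 and 276 CPM in Npr3-positive cells. The 6 knockout cells had 58, 38, 24, 20, 9 and 1 UMIs of Pgk1, in the order 32295, 13134, 25857, 17934, 11298 and 3158 UMIs in all. Slc2a1, a glucose transporter, had 23 of its 29 UMIs in the deepest cell.

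**Figure D4:**
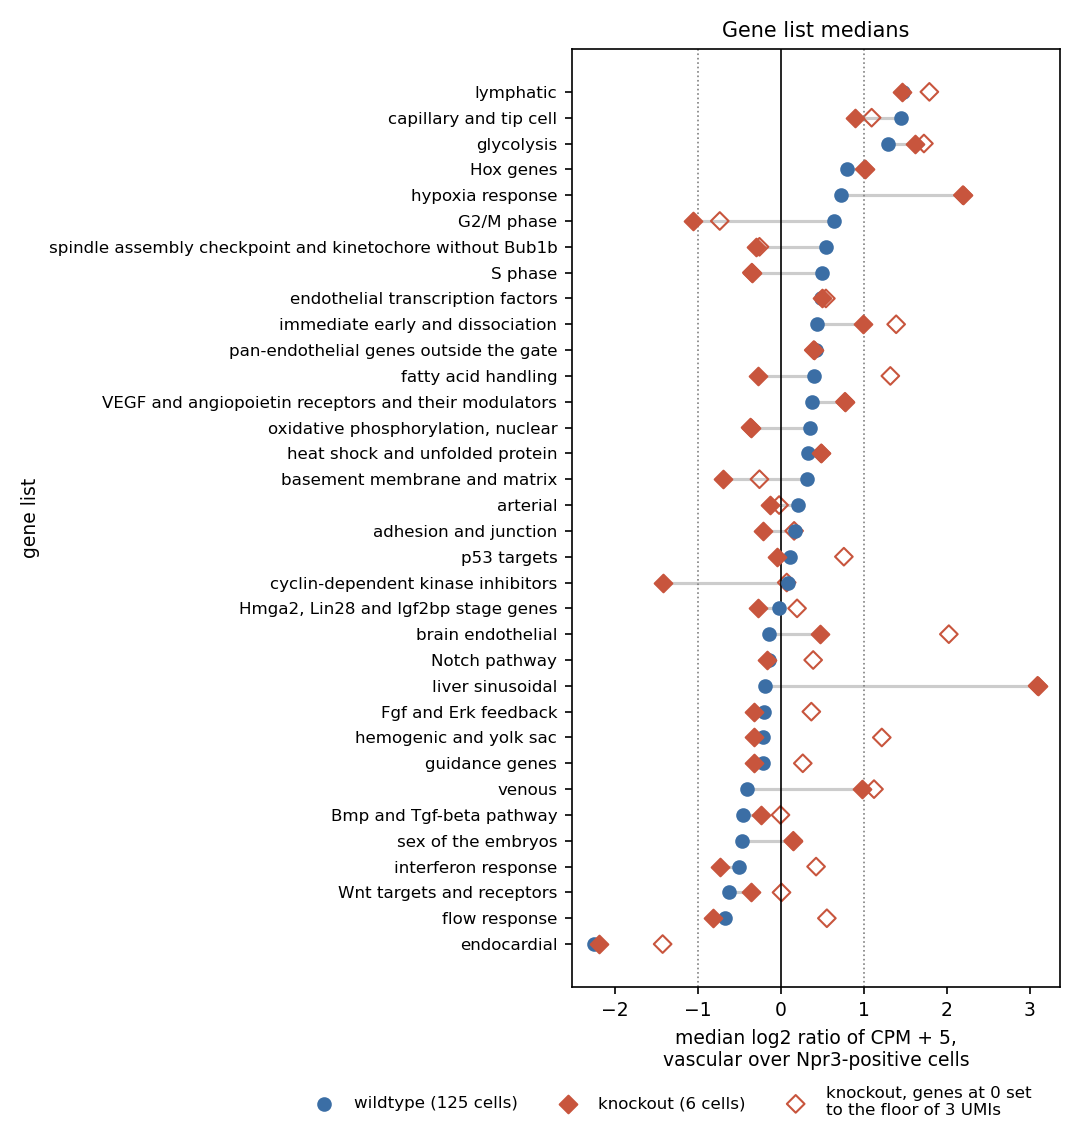
Median log2 ratio of CPM plus 5 of vascular over Npr3-positive cells (x axis) for each gene list (y axis), in the wildtype library (circles, 125 cells) and the knockout library (filled diamonds, 6 cells; open diamonds with genes at 0 set to the floor of 3 UMIs), with dotted lines at 2-fold. The glycolysis list lies right of 2-fold at 1.29 and 1.62, the endocardial list left at -2.25 and -2.19, and the G2/M list on opposite sides of 0 at 0.64 and -1.05. All genes of the knockout library had a median of -0.42, and 0.37 with zeros at the floor.

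The wildtype vascular cells held more RNA of dividing cells than the other endothelial cells. Of 32 G2/M genes 4 were at least 2-fold higher than in Npr3-positive cells and 0 lower, with a median of 0.64, and against the other Npr3-negative cells 22 of 31 were higher and 0 lower, with a median of 1.23. Mki67, a marker of cycling cells, stood at 211 CPM against 118 and 84 CPM, and Birc5, the survivin subunit of the chromosomal passenger complex, at 307 against 115 and 90.6 CPM. Ube2c, which helps cyclins to be degraded, stood at 335 against 144 and 86.5 CPM. At 3000 UMIs a UMI of Mki67 was found in 29.6% of vascular, 13.7% of Npr3-positive and 14% of other Npr3-negative cells. Its log2 ratio over the other Npr3-negative cells was 1.28, but 0.77 with cells thinned before the rule and 0.67 under the depth limit. The size of that gap thus depends on depth. S phase genes had a median of 0.49, with 2 of 33 higher and 0 lower.

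In the knockout vascular cells the G2/M list lay below the Npr3-positive cells, with a median of -1.05 (-0.74 with zeros at the floor), 17 of 32 genes lower and 0 higher. All genes had a median of -0.42 (0.37 with zeros at the floor). The list's median was -0.15 with 1 Npr3 UMI allowed and 0.29 with the Cldn5 rule, so its direction depends on the rule. Mki67 stood at 96.5 against 136 CPM and Ube2c at 96.5 against 279 CPM, each on 10 UMIs, and the log2 ratio of Mki67 was -0.48, but 1.14 with 1 Npr3 UMI allowed. The cells differed widely among themselves. Summed over the list, G2/M RNA stood at 152, 403, 1896, 2301, 2978 and 6333 CPM in the 6 cells, with a median of 2099, beside a median of 2266 and a range of 0 to 11297 in the 125 wildtype cells. The deepest cell, with 32295 of the 103676 UMIs, had 403 CPM, so the summed level follows it. Under the depth limit, which leaves out that cell among others, the list's median over the wildtype vascular cells was -0.65 in place of -1.26. With 1 Npr3 UMI allowed it was -0.26, and with the Cldn5 rule it was 0.047.

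Bub1b, the gene of BubR1, had 60 UMIs in 37 wildtype vascular cells, 38.4 CPM (29.3 to 49.5), and 1 UMI in the knockout cells, 9.65 CPM (0.244 to 53.7). The log2 ratio was -1.57, and the plain ratio lay between -7.32 and 0.54, so a difference was not detectable at this depth. With the Cldn5 rule the log2 ratio was 0.68. In other classes of the same libraries Bub1b went both ways. Npr3-positive cells had 27.3 CPM in the wildtype and 35.3 CPM in the knockout library, other Npr3-negative cells 10.8 and 39.1, cardiomyocytes 60.6 and 32.0, and blood cells 10.8 and 33.2. The labels do not give the deleted part, and a 3' read of a transcript that lacks other exons would still be counted, so these counts are no check of the deletion.

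Genes of the spindle assembly checkpoint and kinetochore lay above the other endothelial classes in the wildtype library. Of 25 genes without Bub1b, 2 were higher and 0 lower than in wildtype Npr3-positive cells, with a median of 0.54, and against the other Npr3-negative cells 14 were higher and 0 lower, with a median of 1.10. Between libraries 0 were higher and 9 lower in the knockout vascular cells, with a median of -0.32 (-0.29 with zeros at the floor), where 20.6% of all genes were lower and their median was -0.21. With zeros at the floor 7 of the 25 list genes and 919 of all 8164 genes were lower, and the median of all genes was -0.03. The list's median thus lay below that of all genes either way, on 6 knockout cells. Cenpf, a kinetochore protein of late G2, stood at 172 CPM in wildtype and 57.9 CPM in knockout vascular cells, the latter on 6 UMIs.

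Among genes higher in the knockout cells were several of the hypoxia response. Slc2a1 stood at 35.9 CPM in wildtype and 279.7 CPM in knockout vascular cells, Bnip3, a mitophagy receptor, at 34.6 and 251 CPM, and Ero1l, an oxidase of the endoplasmic reticulum, at 41 and 328 CPM. Plod2, which hydroxylates collagen, stood at 37.1 and 231 CPM. Bnip3 had 16 of its 26 UMIs in the deepest cell. In the Npr3-positive cells the 4 genes differed less, with 20.4 and 34.7 CPM for Slc2a1, 9.49 and 14.3 for Bnip3, 32.5 and 34.6 for Ero1l, and 24.4 and 33.5 for Plod2. The whole hypoxia list, with zeros at the floor, had 0 of 17 genes past 2-fold between libraries there, with a median of 0.15. In the other Npr3-negative cells 6 of 16 were higher in the knockout library and 0 lower, with a median of 0.70.

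The other genes with the highest ratios were Colec12, Cdh2, Maf, Junb, Fndc3a, Nrip1, Plcl1 and Mpp5. Cdh2, or N-cadherin, stood at 39.1 CPM in wildtype and 579 CPM in knockout vascular cells, with a log2 ratio of 3.73 (plain ratio 3.35 to 4.43), and Colec12, a scavenger receptor, at 20.5 and 357 CPM. Junb, an immediate early factor, stood at 28.2 and 241 CPM. Npr3-positive cells had 52.2 and 73.6 CPM of Cdh2, 64.2 and 115 CPM of Colec12 and 12.3 and 12.8 CPM of Junb. None of these showed a gap of this size in the Npr3-positive cells. Other immediate early genes went along in part, with 4 of 10 higher and 1 lower and a median of 0.55, and -0.03 under the depth limit.

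Several genes known from liver sinusoidal endothelium were higher in the knockout cells. The list was chosen with earlier results of these data known and is no independent evidence of its direction. Of 7 measured genes 5 were higher and 0 lower than in the wildtype vascular cells, with a median of 1.94, or 0.75 with a minimum of 3 UMIs of Fabp4 and Tcf15, which leaves out 1 knockout cell that holds 18 of the 27 UMIs of Stab2. Over knockout Npr3-positive cells 6 of 9 were higher and 2 lower, with a median of 3.10, and 2.79 without that cell. Stab2, a scavenger receptor that clears hyaluronan, had 27 UMIs in 5 of the 6 cells, at 0, 1, 1, 2, 5 and 18, against 2 UMIs in 2 of the 125 wildtype cells. Maf had 29 UMIs at 0, 0, 2, 3, 8 and 16, or 279.7 CPM, against 32 CPM in the wildtype cells. Oit3 had 17 UMIs, 10 of them in a single cell, and Lyve1 had 11, of which 10 lay in the cell with 18 of Stab2. Outside the class Stab2 stood at 5.8 CPM in the knockout Npr3-positive and 52.4 CPM in the other knockout Npr3-negative cells. The list shares Mrc1 with the macrophage list, of which 7 of 9 genes were at 0 in the knockout vascular cells. Summed over a list of hepatocyte genes the knockout vascular cells had 9.65 CPM, a single UMI, and the wildtype cells 10.2 CPM. Where in the dissected tissue the 5 cells lay was not tested.

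**Figure D5:**
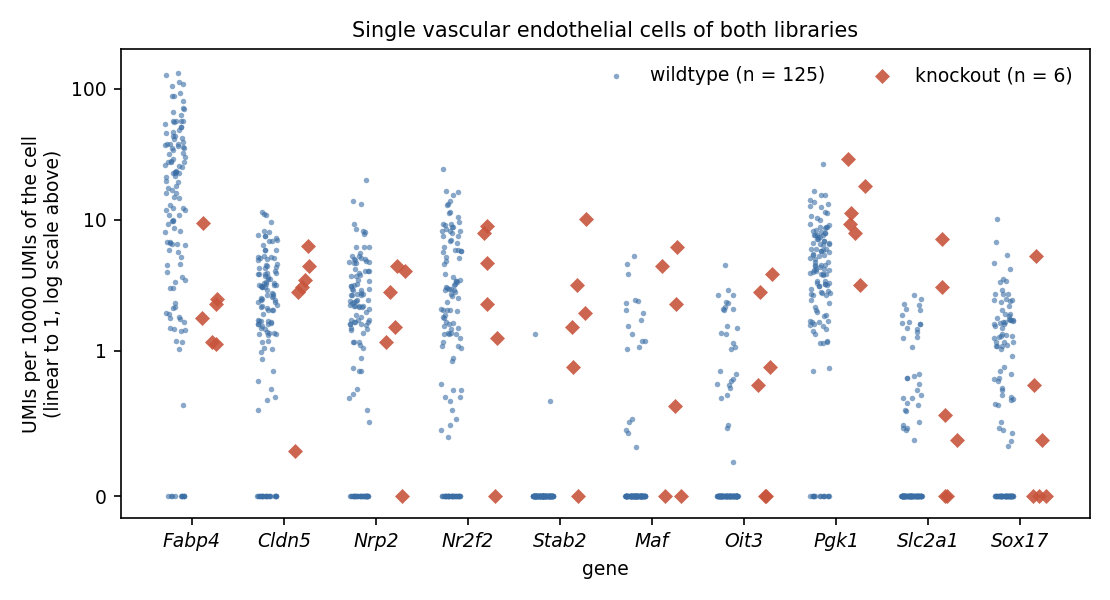
UMIs per 10000 UMIs of the cell (y axis, linear to 1 and log scale above) for 10 genes in each wildtype (dots, n = 125) and knockout (diamonds, n = 6) vascular cell, with points slightly jittered. Fabp4 is low in the knockout cells, Cldn5, Nrp2 and Nr2f2 overlap in full, and Stab2 has a UMI in 5 of 6 knockout cells and 2 of 125 wildtype cells.

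The genes named as lowest in the knockout cells had 0 UMIs there. The peptide gene Nts stood at 285 CPM in the wildtype vascular cells and was at least 9.85-fold lower in the knockout ones, against the floor of 3 UMIs over the 6 cells. Igfbp5, which binds insulin-like growth factors, was at least 7.88-fold lower and Cavin1, the partner of Cav1 in caveolae, at least 5.62-fold lower. Eln, Cdh13, Sorbs2, Ahnak, Emp1, Gask1b, Hmmr and Ccl21a were at least 2.83-fold to 4.82-fold lower. Some of these were also lower in the knockout Npr3-positive cells: Nts stood at 156 CPM in the wildtype and 8.43 CPM in the knockout ones and Igfbp5 at 1028 and 289.8 CPM. Cavin1 stood there at 66.4 and 37.3 CPM. For Eln and Ccl21a the wildtype RNA lay in few cells, as given above.

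Flow-responsive genes lay on the low side in the class. Klf2, which shear stress induces, stood at 179.9 CPM in wildtype vascular cells, 358 CPM in Npr3-positive and 699 CPM in other Npr3-negative cells, and had 2 UMIs in the knockout vascular cells. Its log2 ratio over knockout Npr3-positive cells was -3.40, and -0.88 with 1 Npr3 UMI allowed. The flow list had 1 gene higher, Nostrin, and 1 lower of 12 against Npr3-positive cells, with a median of -0.67, and 1 higher and 6 lower of 11 against the others, with a median of -1.08. Fn1, or fibronectin, stood at 268 CPM against 1482 and 1128 CPM. Col15a1, a basement membrane collagen, stood at 79.4 CPM against 7.46 and 12.5 CPM and was found in 52 of the 125 cells. Matrix genes thus differed by gene, with 2 of 20 higher, 7 lower and a median of 0.31.

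Of Bmp and Tgf-beta pathway genes 7 of 23 were lower than in wildtype Npr3-positive cells and 0 higher, with a median of -0.46. Bmpr1a, a Bmp receptor, stood at 20.5 against 169.9 CPM, and had 0 UMIs in the knockout vascular cells against 178 CPM in the Npr3-positive ones. Tgfbr3, or betaglycan, stood at 64 against 391 CPM. Of 18 Notch pathway genes 17 were measured, with 3 higher and 2 lower and a median of -0.15, the median of all genes. Mfng, which adds sugars to Notch receptors, was the highest of them, at 78.8 against 9.28 CPM.

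RNA of other cell types was found at differing levels. Summed over 12 cardiomyocyte genes, the wildtype vascular cells had 300.3 CPM, from 0 to 3504 CPM in single cells, against 729 CPM in the Npr3-positive cells, and the knockout vascular cells had 145 CPM, with 6 of the 12 genes at 0. Mesenchymal genes summed to 199 CPM in the wildtype vascular cells against 1135 CPM in Npr3-positive cells, with all 11 genes found, and to 9.65 CPM in the knockout vascular cells. Erythroid genes summed to 3805 CPM in wildtype and 868 CPM in knockout vascular cells, and macrophage genes to 66.6 and 135 CPM, against 105 and 27.7 CPM in the Npr3-positive cells. Smooth muscle and pericyte genes summed to 189.5 CPM in the wildtype vascular cells and 122 CPM in the Npr3-positive ones, so this list and the macrophage list of the knockout library lay above the Npr3-positive level. Most of the knockout macrophage sum was Mrc1, also on the liver sinusoidal list, with 11 UMIs in 2 cells, and 7 of the 9 genes were at 0. All 7 epithelial genes were at 0 in the vascular cells of both libraries, and the megakaryocyte and neural lists were at 0 in the knockout ones. The part of such RNA in the values above was not tested.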

How the data were processed

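Single-cell counts were deposited by the authors as 1 matrix of UMI counts per library, made with Cell Ranger 7.1.0 on mm10, per the submitters' processing notes; any filter by the authors on barcodes is not given in sources used here. Counts of each class were summed per library and scaled to CPM, and log2 ratios were taken after adding 5 CPM, over genes with at least 20 UMIs, with 2-fold as the limit. The members and gene lists were chosen with earlier results of these data known. The genes named are, between libraries, the 12 with the highest and the 12 with the lowest log2 ratio with 60 UMIs over both sides and 50 CPM in 1 of them, and, against each other endothelial class, the 10 highest and lowest by the weaker of both libraries' ratios, without ribosomal, mitochondrial, hemoglobin, sex-linked, unnamed and rule genes, and of each list the members with the most UMIs or largest ratios; Ccl21a, Rsad2, Wt1, Kcne3, Stab2, Oit3, Maf, Ephb1, Col15a1, Btnl9 and Piezo2 were described after their values were seen; 1 of the lowest genes is not reported here. Intervals are exact Poisson, Clopper-Pearson or conditional binomial ones. No doublet caller was run. The depth limit leaves out, in every class, barcodes above 2 times the median UMI count of the library's vascular cells. Summing and ratios were tested on simulated data. Python 3.11.15, numpy 2.4.6, scipy 1.17.1, pandas 2.3.3 and matplotlib 3.10.9 were used.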

Additional observations from a re-analysis of the deposited data

Results flagged for a closer look

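The G2/M list went opposite ways in both libraries, with a median log2 ratio of vascular over Npr3-positive cells of 0.64 in the wildtype library and -1.05 in the knockout library, but the latter was -0.15 with 1 Npr3 UMI allowed and 0.29 with the Cldn5 rule. Bub1b, as log2 of knockout over wildtype, stood at -1.57 in the vascular cells (0.68 with the Cldn5 rule) and -0.82 in cardiomyocytes, but at 1.48 in the other Npr3-negative endothelial cells and 1.28 in blood cells. With 1 library per genotype none of these differences was tested.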

How the results depend on the processing

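The 6 knockout barcodes limit every level on that side. No paired analysis was possible because there is 1 library per genotype. Among the main values 132 stayed within their counting interval or within 1.5 times of the count, 17 moved further and 1, Bub1b, changed sign. With cells thinned to 3000 UMIs before the rule 77 of the 125 wildtype barcodes were left. The knockout share was 0.257% and 1 knockout barcode was left, so no knockout level was taken from it. Between libraries 545 genes were higher and 1678 lower in the knockout, against 331 and 1080 with up to 1 Npr3 UMI, 246 and 737 with a gene minimum of 60 UMIs, 1237 and 2852 with no minimum and 287 and 906 with the Cldn5 rule. Lists with a median past 2-fold numbered 8, against 3 with 1 Npr3 UMI and 4 with the Cldn5 rule. The Cldn5 rule also reversed Bub1b in vascular cells to 0.68, the G2/M list between libraries to 0.047 and over knockout Npr3-positive cells to 0.29, and the kinase inhibitor list between libraries to 0.13, and it put 55.1% of wildtype cells at both genes. A gene minimum of 60 UMIs reversed the list of genes that differ by sex from -2.84 to 1.14. With 1 CPM added, 627 genes were higher and 2070 lower than in wildtype Npr3-positive cells. Against the other Npr3-negative cells 285 were higher with thinning, 273 with the Cldn5 rule, and 553 lower with a gene minimum of 60 UMIs, while thinning reversed the lymphatic list to -0.35. The causes were not tested.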

Other observations

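Of 18 interferon response genes measured in the wildtype vascular cells 5 were at least 2-fold lower than in Npr3-positive cells and 1 higher, with a median of -0.50. The higher one was Rsad2, or viperin, at 41.6 against 4.48 CPM, in 30 of 125 cells against 18 of 1039. Guidance genes were mixed, with 4 of 25 higher and 9 lower, and Sema3a stood at 25 CPM against 229 CPM. Wnt pathway genes had 4 of 14 lower and 0 higher.

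Wt1, a transcription factor of the epicardium that coronary endothelium also uses, was found in 61 of the 125 wildtype vascular cells and 76 of 1039 Npr3-positive cells, at 87.1 and 18.4 CPM. It made up most of the summed epicardial level of 94.8 CPM, and 3 of the 8 epicardial genes were at 0. In the knockout library it was found in 1 of 6 vascular cells. Btnl9 was found in 51 wildtype vascular cells and 17 Npr3-positive ones, and the ephrin receptor gene Ephb1 in 41 and 18. Hmga2, a chromatin protein of embryonic cells, stood at 239 CPM in wildtype and 299 CPM in knockout vascular cells, against 103 and 279 CPM in the Npr3-positive cells. The genes of this paragraph and Rsad2 were picked after their values were seen.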
